A study of Mus musculus with 20 samples.

Results

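The 10 genes described here encode the enzymes that make serine from glucose and pass its carbon into the folate cycle: Phgdh, Psat1, Psph, Shmt1, Shmt2, Mthfd1, Mthfd2, Mthfd1l, Aldh1l2 and Tyms. They were taken by gene name from 2 tables of read counts, each listing 56748 genes, and all 10 passed the minimum of 10 counts in total in both tables. The set was chosen with measured values in view, because after stimulation Shmt2 was higher without iNOS than with it and because the response of Aldh1l2 to stimulation differed with Akr1a1 KO. Differences of these genes between the stimulated iNOS groups, the genotype-by-stimulation differences, Shmt2 in the stimulation comparisons of the iNOS experiment and Aldh1l2 in every RAW264.7 comparison are therefore given as descriptions without a test.

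Serine is built from a glycolytic intermediate in the cytosol by PHGDH, PSAT1 and PSPH, in that order. Serine hydroxymethyltransferase, SHMT1 in the cytosol and SHMT2 in mitochondria, splits serine into glycine and a carbon unit that is carried by tetrahydrofolate. In mitochondria MTHFD2 and MTHFD1L oxidise that unit and release it as formate, and ALDH1L2 can burn it to carbon dioxide while making NADPH. In the cytosol MTHFD1 puts formate back on folate for purine synthesis, and TYMS uses a folate-bound carbon to make thymidylate for DNA. Dividing cells lean heavily on this pathway, and several of its genes are known targets of the transcription factor ATF4, which responds to amino acid shortage and other stresses.

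The study asked how nitric oxide, made by inducible nitric oxide synthase (iNOS, gene Nos2), and the aldo-keto reductase AKR1A1 reshape macrophages activated by bacterial lipopolysaccharide (LPS) and interferon gamma (IFNγ). In the iNOS experiment, 12 libraries labelled bone marrow-derived macrophages (BMDM) formed 4 groups of 3, wildtype and iNOS knockout (KO), each unstimulated or stimulated with LPS at 50 ng/mL and IFNγ at 30 ng/mL for 48 h. The labels describe marrow cells of wildtype or iNOS KO mice, both given as C57BL/6J, of either sex and 6 to 12 weeks old. By the same labels the cells were differentiated and kept with M-CSF at 20 ng/mL. For primary BMDMs the study's methods say that marrow was pooled by genotype. In the Akr1a1 experiment, 8 libraries of RAW264.7, a mouse macrophage-like tumour line, formed 4 groups of 2, wildtype and Akr1a1 KO, unstimulated or stimulated with LPS at 50 ng/mL and IFNγ at 10 ng/mL for 48 h. The Akr1a1 KO lines were made with CRISPR-Cas9 and grown from single sorted cells, so each is a clone, and the methods give 2 independent clonal replicates per group.

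Total counts ran from 15072109 to 18878107 per library in the iNOS experiment and from 11876719 to 44583327 in the Akr1a1 experiment. Levels are given as CPM, counts scaled to a common library size with TMM factors. Replicate libraries of a group differed by more than counting noise in every pair, with a chi-square per degree of freedom of 2.53 to 61.6 over genes. Stimulated iNOS KO replicate B stood apart from A (26.4) and C (33.6), which were closer to each other (6.12), and counts of members and list genes that rest on it are also given without it. Nos2 was 11072 ± 618 CPM (SD, n = 3) in stimulated wildtype and 891 ± 20.6 CPM (SD, n = 3) in stimulated iNOS KO libraries, and which part of the gene was deleted is not given in the sources used here. Akr1a1 was 427 and 488 CPM in unstimulated wildtype against 21.8 and 206 CPM in unstimulated Akr1a1 KO libraries, and 576 and 675 CPM against 212 and 370 CPM after stimulation, so it was lower in each library labelled Akr1a1 KO but present in all 4 (edgeR adjusted p = 0.56 at rest and 0.643 after stimulation).

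Labels and sources disagreed on several points. The methods give the iNOS KO strain as B6.129P2-Nos2tm1Lau/J and a narrower age range for the mice than the labels do. The study's methods describe the cells of the iNOS experiment as RAW264.7, whereas the labels call them BMDM, and they are called BMDM-labelled here. Pycard, which encodes the inflammasome adaptor ASC that RAW264.7 cells are known to lack, was between 0 and 0.832 CPM in all 12 BMDM-labelled libraries and between 0.0785 and 0.563 CPM in the 8 RAW264.7 libraries, a check added after its values were seen. The titles of both unstimulated RAW264.7 libraries of replicate B call them stimulated, and they were grouped by their treatment field as unstimulated. The proliferation marker Mki67 was between 1230 and 1372 CPM in all 4 libraries so grouped and at most 8.17 CPM in the 4 stimulated ones. Of 8 macrophage markers, 7 or 8 exceeded 1 CPM on average in every group. Neutrophil markers summed to at most 62.1 CPM in the BMDM-labelled and 420 CPM in the RAW264.7 libraries, in both cases after stimulation. S100a8 alone reached 60.9 and 419 CPM there, and the other neutrophil markers were at most 1.87 CPM (Camp) in any library. Fewer cells of a kind and less RNA per cell cannot be told apart in such bulk samples.

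Promoter sequences were looked up because the members moved together. RefSeq promoters of the GRCm38.p6 build, 250 bases before to 50 bases after each start, were found for 9 of the 10 genes, and Psat1 had an entry for each of 2 starts, while Aldh1l2 was not among them. They were searched on both strands for CCAAT, the box bound by NF-Y, which 6 of the 10 member entries, each of another gene, and 37.4% of all 32851 entries held. The E-box CACGTG, which MYC can bind, was in the Tyms entry and in 7.15% of all entries. No member entry held TGATGNAA, the core of the element bound by ATF4 with C/EBP factors (3.97% of all entries), or the E2F motifs TTTCCCGC (1.07%) and TTTGGCGC (0.514%). The 250 bases before the start are shown, 5′ to 3′ on the gene's strand and with matches in capitals, for the entry enzyme of serine synthesis and for the entries that held most CCAAT boxes or the E-box, with Shmt2, which held none of these motifs, for contrast. They lie, all on the minus strand, at chr3:98339970-98340219 (Phgdh), chr19:15925060-15925309 (Psat1, the upstream start), chr6:83317605-83317854 (Mthfd2), chr5:30073626-30073875 (Tyms) and chr10:127522445-127522694 (Shmt2).
Phgdh: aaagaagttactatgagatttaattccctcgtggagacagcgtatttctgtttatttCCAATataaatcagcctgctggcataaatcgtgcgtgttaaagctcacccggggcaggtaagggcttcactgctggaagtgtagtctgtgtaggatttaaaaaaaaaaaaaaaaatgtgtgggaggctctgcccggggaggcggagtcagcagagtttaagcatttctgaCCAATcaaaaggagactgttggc
Psat1: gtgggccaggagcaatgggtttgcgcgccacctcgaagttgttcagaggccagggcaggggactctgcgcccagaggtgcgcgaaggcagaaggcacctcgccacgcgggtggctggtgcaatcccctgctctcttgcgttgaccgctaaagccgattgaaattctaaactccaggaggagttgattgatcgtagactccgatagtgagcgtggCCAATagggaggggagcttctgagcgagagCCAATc
Mthfd2: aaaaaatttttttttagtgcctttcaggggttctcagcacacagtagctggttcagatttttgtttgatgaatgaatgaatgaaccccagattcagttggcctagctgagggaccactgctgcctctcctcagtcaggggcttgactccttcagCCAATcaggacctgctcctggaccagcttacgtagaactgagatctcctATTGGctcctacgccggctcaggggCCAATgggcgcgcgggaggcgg
Tyms: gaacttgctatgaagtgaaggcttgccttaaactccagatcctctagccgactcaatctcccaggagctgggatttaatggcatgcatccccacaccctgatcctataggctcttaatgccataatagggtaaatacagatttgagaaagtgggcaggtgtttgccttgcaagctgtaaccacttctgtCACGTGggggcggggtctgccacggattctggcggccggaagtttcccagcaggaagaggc
Shmt2: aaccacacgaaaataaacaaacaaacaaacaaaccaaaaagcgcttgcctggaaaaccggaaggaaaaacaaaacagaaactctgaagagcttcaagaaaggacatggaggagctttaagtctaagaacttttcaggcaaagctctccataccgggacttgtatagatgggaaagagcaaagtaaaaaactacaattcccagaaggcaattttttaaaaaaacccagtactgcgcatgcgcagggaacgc

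A match of letters says nothing of whether a factor is bound there. The Phgdh window held 2 CCAAT boxes, and the Mthfd2 window held 3, 1 of them on the opposite strand. Psat1 had 3 in its full window, of which the last lies past the start and outside the stretch shown. The count tables list gene positions without naming a build, so these were not combined with the promoter windows. As listed there, Shmt2 spans bases 127352992 to 127358313 of chromosome 10 and Aldh1l2 bases 83323314 to 83370004 of the same chromosome, both on the minus strand. The tables also hold the processed pseudogenes Phgdh-ps1 and Tyms-ps, and how reads shared with such copies were counted was not given in the sources used here.

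In resting wildtype cells of the iNOS experiment the mitochondrial Shmt2 was the most abundant member per kilobase of transcript length. Its level was 132 ± 6.03 CPM per kb (SD, n = 3), followed by Phgdh at 98.9 ± 4.94, Psat1 at 82.9 and Mthfd2 at 51.5 CPM per kb. Mthfd1 at 30.5 and Mthfd1l at 29.2 CPM per kb overlapped, as did Shmt1 at 7.50 and Tyms at 6.96 CPM per kb, while Psph stood between those pairs at 9.68 and Aldh1l2 was lowest at 2.60 CPM per kb. Unstimulated iNOS KO cells had the same order of means, with Psph, Shmt1 and Tyms overlapping in turn. In resting wildtype RAW264.7 cells the means again ran from Shmt2 at 115 to Aldh1l2 at 1.13 CPM per kb, and Shmt2, Psat1, Phgdh and Mthfd1l overlapped in turn. After stimulation Shmt2 was no longer the most abundant in wildtype cells: Psat1 at 23.4 and Mthfd2 at 21.8 CPM per kb overlapped at the top in BMDM-labelled cells, and Mthfd2 at 25.3 CPM per kb overlapped Mthfd1l in RAW264.7 cells.

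After stimulation of wildtype BMDM-labelled cells, all 10 members were lower. The 9 members tested, without Shmt2, were all called lower (adjusted p under 0.05 and a change of more than 2-fold, by edgeR's quasi-likelihood test), against 15.7% of the 18691 genes tested that were called lower and 35.4% called in either direction, and the median log2 fold change of the 10 was −2.19 against 0.07 over all genes. Unstimulated and stimulated wildtype libraries did not overlap for any member. The plot of CPM per library shows each of the 12 libraries.

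**Figure D1:**
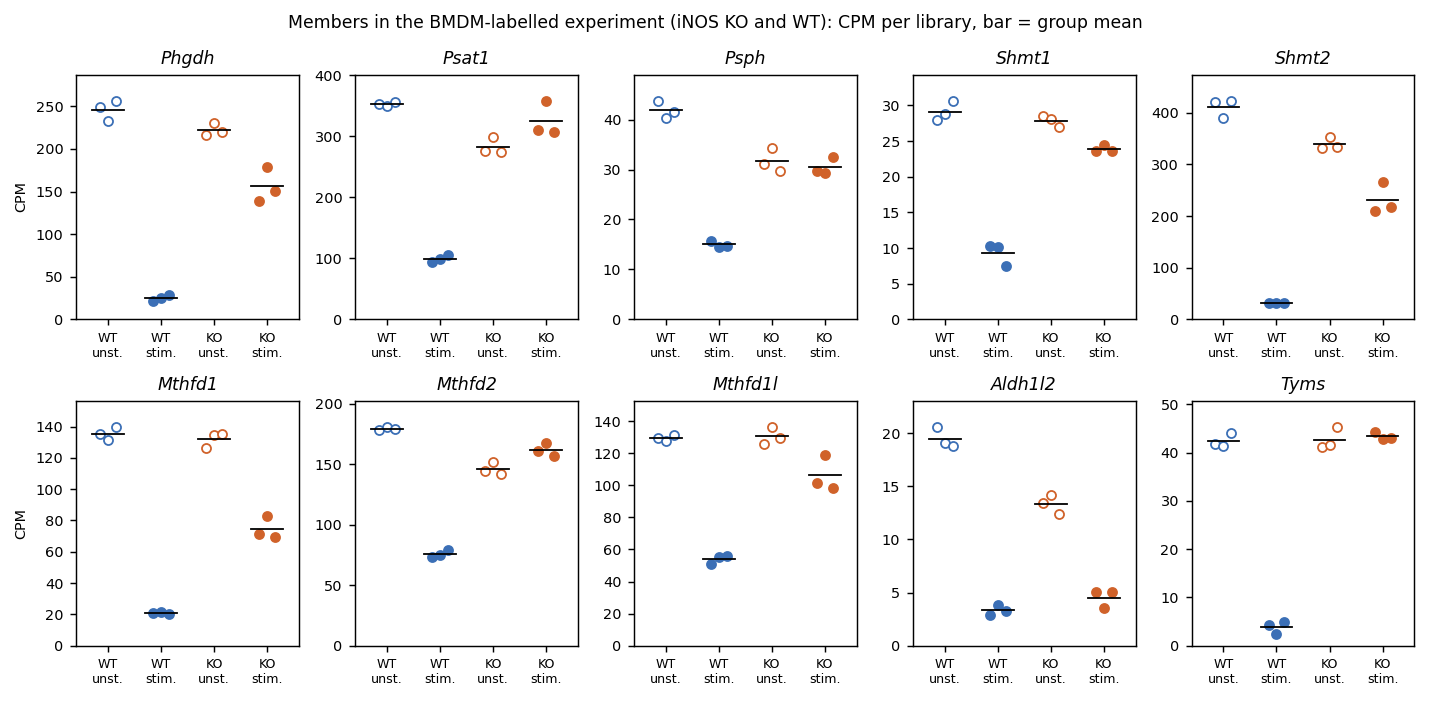
CPM of each member (vertical axis, linear from 0, a scale for each gene) in the 12 BMDM-labelled libraries: wildtype in blue, iNOS KO in orange, open points unstimulated, filled points stimulated, black bar the group mean. The 3 stimulated wildtype libraries lie below all other libraries for every member except Aldh1l2, where they overlap the stimulated iNOS KO libraries.

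Among the serine synthesis genes, Phgdh had the largest change. Phgdh, the entry enzyme, was at 232, 249 and 257 CPM in unstimulated wildtype libraries and at 22.1, 25.0 and 28.5 CPM in stimulated ones, a 9.76-fold lower level (log2 fold change −3.29 ± 0.10 SE, edgeR adjusted p = 3.6e-14). Psat1, the aminotransferase of the second step, went from between 349 and 356 CPM to between 93.8 and 105 CPM (−1.83 ± 0.07, adjusted p = 7.25e-13). Psph, the phosphatase that releases serine, had the smallest change of these genes, from between 40.4 and 43.8 CPM to between 14.5 and 15.7 CPM (−1.48 ± 0.09, adjusted p = 1.17e-10). The 3 stimulated libraries of each gene lay together and far below the unstimulated ones.

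Of the hydroxymethyltransferases, the mitochondrial gene had the larger difference. Shmt2 was at 389, 421 and 423 CPM before and at 31.6, 32.0 and 32.6 CPM after stimulation, 12.8-fold lower (log2 fold change −3.68), and is given without a test. Shmt1 was at 27.9, 28.8 and 30.6 CPM before and at 7.49, 10.2 and 10.3 CPM after (−1.64 ± 0.11 SE, edgeR adjusted p = 5.18e-10). Per kilobase, Shmt2 exceeded Shmt1 by 16.9 to 18.8 times in unstimulated and by 3.83 to 5.44 times in stimulated wildtype libraries.

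Among Mthfd1, Mthfd2 and Mthfd1l the cytosolic gene had the largest fall. The cytosolic Mthfd1 went from between 131 and 140 CPM to between 20.2 and 21.4 CPM (log2 fold change −2.70 ± 0.08 SE, edgeR adjusted p = 1.52e-14). The mitochondrial Mthfd2, an oxidising enzyme of the formate route, went from between 179 and 181 CPM to between 73.6 and 79.5 CPM (−1.24 ± 0.06, adjusted p = 1.31e-11), and Mthfd1l, which releases formate, from between 128 and 132 CPM to between 51.0 and 56.1 CPM (−1.26 ± 0.08, adjusted p = 2.5e-10). The ratio of Mthfd2 to Mthfd1 per kilobase was between 1.63 and 1.75 before and between 4.45 and 5.00 after stimulation, and that of Mthfd1l to Mthfd1 between 0.944 and 0.974 and then between 2.47 and 2.77, with no overlap. Aldh1l2, the NADPH-producing branch, went from 18.8, 19.1 and 20.6 CPM to 2.91, 3.26 and 3.85 CPM (−2.54 ± 0.14, adjusted p = 5.76e-11). Tyms, the thymidylate synthase, went from 41.4, 41.7 and 44.0 CPM to 2.50, 4.29 and 4.99 CPM, 10.8-fold lower (−3.43 ± 0.14, adjusted p = 1.56e-12).

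In iNOS KO cells the changes on stimulation were smaller than 2-fold for all members but Aldh1l2. Of the 9 members tested 1, Aldh1l2, was called, as lower, against 8.78% of genes called lower and 22.8% called in either direction, and the median log2 fold change of the members was −0.26. Without the 2-fold limit, 6 of the 9 members tested had an adjusted p under 0.05, against 51.9% of all genes. Shmt2, described without a test, was at 332, 334 and 354 CPM before and at 210, 218 and 264.97 CPM after stimulation (log2 fold change −0.56). Aldh1l2 was at 12.4, 13.4 and 14.2 CPM before and at 3.53, 5.01 and 5.01 CPM after stimulation (−1.55 ± 0.14 SE, edgeR adjusted p = 4.39e-08). Phgdh changed by −0.51 ± 0.09 (adjusted p = 0.000193), Mthfd1 by −0.82 ± 0.07 (adjusted p = 5.68e-08) and Mthfd1l by −0.30 ± 0.08 (adjusted p = 0.00302), all lower by less than 2-fold. Psat1 and Mthfd2 went slightly the other way, Psat1 by 0.20 ± 0.07 (adjusted p = 0.0224) and Mthfd2 by 0.15 ± 0.06 (adjusted p = 0.0454). For Tyms the difference was 0.03, with a 95% confidence interval of −0.21 to 0.26, for Psph −0.06 (−0.23 to 0.12) and for Shmt1 −0.22 (−0.43 to −0.02, adjusted p = 0.067). Without stimulated replicate B, Psat1 (0.13, adjusted p = 0.0581) and Mthfd2 (0.12, adjusted p = 0.0643) no longer passed and Shmt1 did (−0.24, adjusted p = 0.0382), while Aldh1l2 was still the member called (−1.41).

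Set side by side after stimulation, the iNOS KO mean was above the wildtype mean for all 10 members. Of the 10 members 8 were called higher, where 10.7% of all genes were called higher and 19.6% in either direction. The members were selected on this comparison, so nothing is read from that count. Shmt2 was 7.19-fold above stimulated wildtype. Phgdh was at 139, 151 and 179 CPM, 6.21-fold above, and Tyms at 42.8, 43.1 and 44.3 CPM, 3.47 higher on the log2 scale. Mthfd1 was 3.59-fold, Psat1 3.27-fold, Shmt1 2.56-fold, Mthfd2 2.13-fold and Psph 2.03-fold higher. Mthfd1l was 1.96-fold higher, just short of 2-fold, and Aldh1l2 1.36-fold higher with overlapping libraries. Without iNOS KO stimulated replicate C, Psph was no longer past 2-fold and Mthfd1l was. Without replicate B the log2 difference was 2.74 for Shmt2 (2.85 with it) and 2.53 for Phgdh (2.63 with it), and 8 members were again called. The genotype-by-stimulation difference was positive for all 10, where 20% of all genes were called positive and 35.4% in either direction, and again nothing is read from it.

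**Figure D2:**
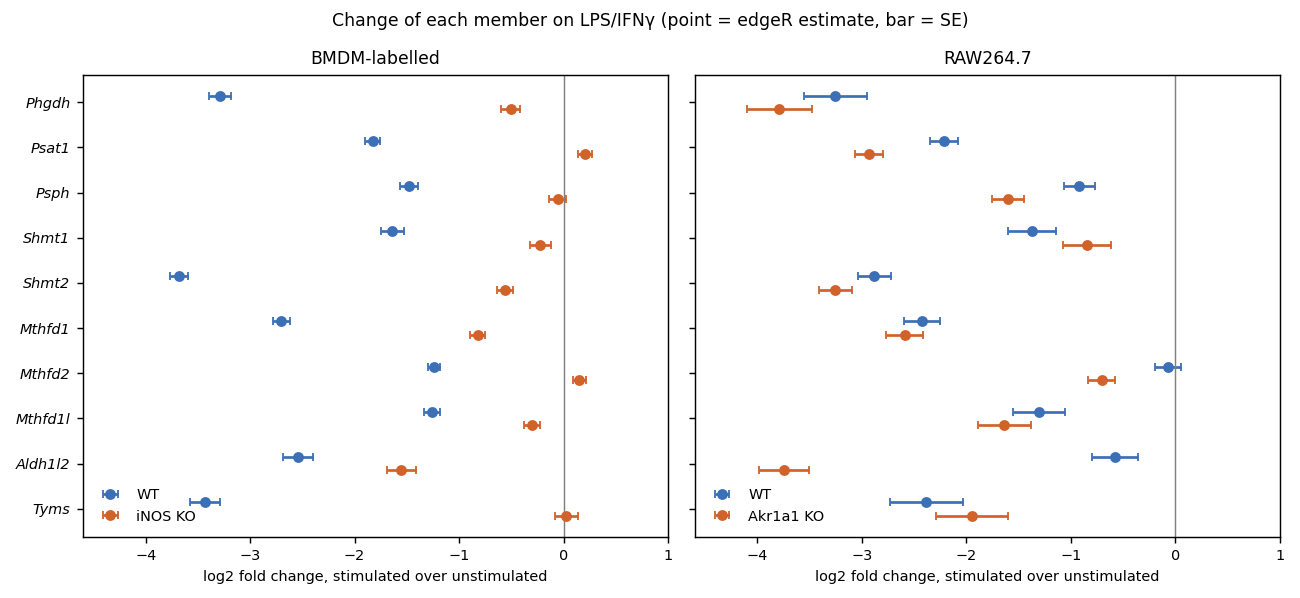
Log2 fold change of each member on LPS/IFNγ (horizontal axis) with its standard error, in wildtype (blue) and KO cells (orange), for the BMDM-labelled experiment on the left and the RAW264.7 experiment on the right. In the BMDM-labelled experiment the iNOS KO points lie between −0.82 (Mthfd1) and 0.20 (Psat1) except Aldh1l2 at −1.55, and in RAW264.7 cells both genotypes lie below 0 throughout, with Mthfd2 nearest to 0 in wildtype cells.

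At rest the genotypes differed little. No member passed the call in unstimulated iNOS KO against wildtype cells, where 1.66% of genes did, and DESeq2 called none either. Without the 2-fold limit 5.98% of all genes differed at an adjusted p under 0.05. Of the members 5 were lower at that threshold, as many as had an unadjusted p under 0.05. They were Aldh1l2 (log2 fold change −0.55 ± 0.12 SE, edgeR adjusted p = 0.00698), Psph (−0.40 ± 0.08, adjusted p = 0.00487), Psat1 (−0.32 ± 0.07, adjusted p = 0.00919), Mthfd2 (−0.30 ± 0.06, adjusted p = 0.00458) and Shmt2 (−0.28 ± 0.08, adjusted p = 0.0448). For each of these 5 genes every iNOS KO library lay below every wildtype library. Tyms (0.01, 95% confidence interval −0.23 to 0.25) and Mthfd1l (0.01, −0.15 to 0.17) were the closest to no difference.

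Stimulated wildtype RAW264.7 cells also had lower levels of most members. In that experiment, where genes are called by adjusted p alone, 8 of the 9 members tested, without Aldh1l2, were called lower, against 19.2% of 19569 genes called lower and 37.7% in either direction. Phgdh was at 131 and 266 CPM before and at 19.3 and 22.3 CPM after stimulation (log2 fold change −3.25 ± 0.30 SE, edgeR adjusted p = 9.04e-05), Shmt2 at 316 and 401 against 47.3 and 50.1 CPM (−2.88 ± 0.16, adjusted p = 6.44e-06) and Mthfd1 at 139 and 155 against 23.8 and 31.1 CPM (−2.42 ± 0.17, adjusted p = 2.46e-05). Both stimulated libraries lay below both unstimulated ones for each of these 3 genes. Tyms (−2.38 ± 0.35), Psat1 (−2.22 ± 0.13), Shmt1 (−1.37 ± 0.23), Mthfd1l (−1.31 ± 0.25) and Psph (−0.92 ± 0.15) fell as well, with adjusted p between 9.37e-06 and 0.00379. Mthfd2 overlapped between the states: it was at 84.8 and 101 CPM before and at 83.3 and 93.4 CPM after stimulation, and its change of −0.07 had a 95% confidence interval of −0.36 to 0.22 (adjusted p = 0.694).

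**Figure D3:**
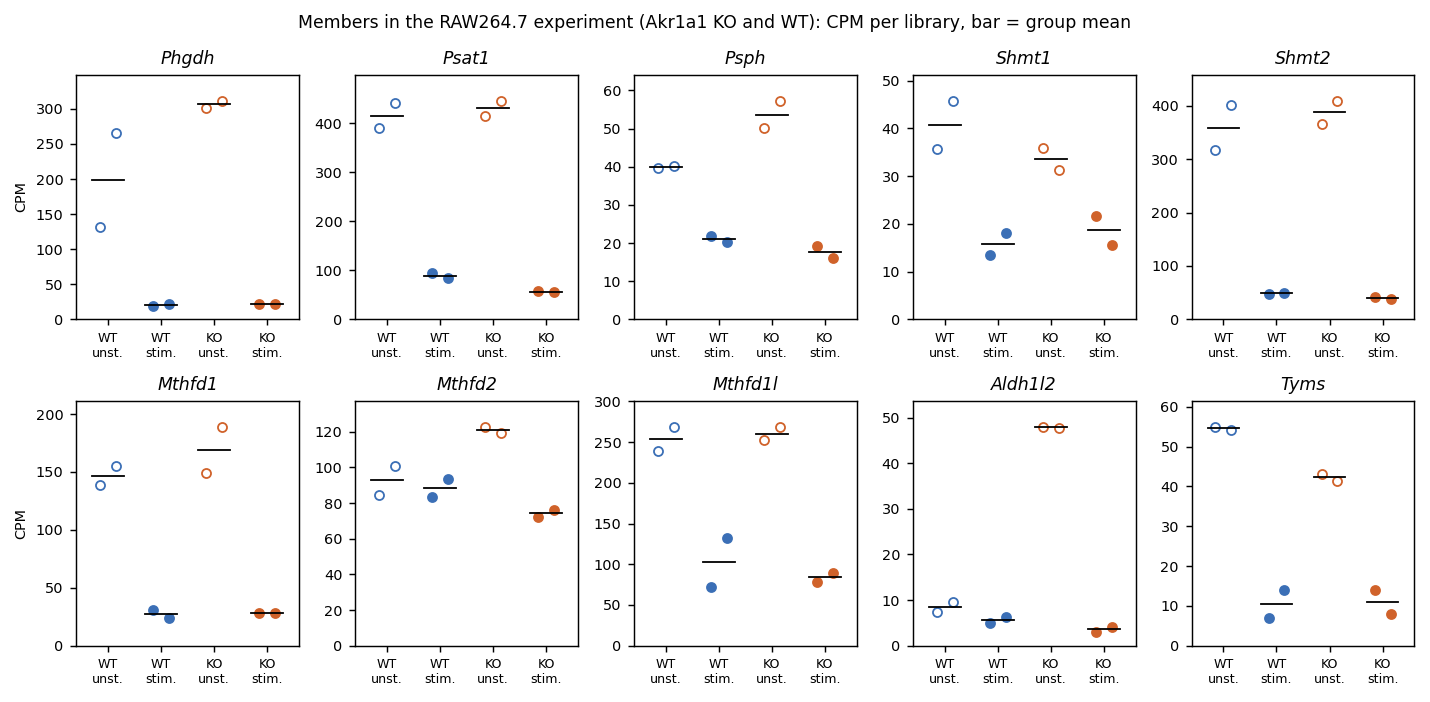
CPM of each member (vertical axis, linear from 0, a scale for each gene) in the 8 RAW264.7 libraries: wildtype in blue, Akr1a1 KO in orange, open points unstimulated, filled points stimulated, black bar the group mean. The unstimulated Akr1a1 KO libraries stand apart for Aldh1l2, at 47.8 and 47.9 CPM, while for most other members the split is between unstimulated and stimulated libraries.

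On stimulation of Akr1a1 KO cells all 9 members tested were called lower, leaving out Aldh1l2, which is described further on, against 19.4% of genes called lower and 39.2% in either direction. Phgdh changed by −3.79 ± 0.31 (log2 fold change ± SE, edgeR adjusted p = 4.39e-05), Shmt2 by −3.25 ± 0.16 (adjusted p = 4.7e-06) and Psat1 by −2.93 ± 0.13 (adjusted p = 3.61e-06). Mthfd2 went from 120 and 123 CPM to 72.3 and 76.2 CPM (−0.71 ± 0.13, adjusted p = 0.00263). Shmt1 had the weakest support (−0.85 ± 0.23, adjusted p = 0.0188), and its call was lost without Akr1a1 KO unstimulated replicate A, without unstimulated replicate B or without stimulated replicate B. Set against wildtype, the change on stimulation differed by −0.71 for Psat1, −0.68 for Psph and −0.63 for Mthfd2 and by between −0.54 and 0.52 for the others except Aldh1l2, all on the log2 scale and given as descriptions.

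After stimulation no member was called in Akr1a1 KO against wildtype cells, where 0.286% of genes were. An unadjusted p under 0.05 was found for 2 members, and as its share over all genes was not computed, nothing is read from them. DESeq2 called 1, Psat1, and more genes in all than edgeR did, as given in the closing section. Psat1 was at 55.2 and 57.8 CPM in Akr1a1 KO and at 84.9 and 94.2 CPM in wildtype libraries (log2 fold change −0.66 ± 0.13 SE, edgeR adjusted p = 0.122). Shmt2 differed by −0.26 with a 95% confidence interval of −0.60 to 0.08 and Phgdh by 0.09 (−0.57 to 0.75). Depth differed by 3.75-fold across these 8 libraries.

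Aldh1l2 was the member that set the resting Akr1a1 KO cells apart. It was at 47.8 and 47.9 CPM in unstimulated Akr1a1 KO and at 7.41 and 9.61 CPM in unstimulated wildtype libraries, 5.58-fold higher, and after stimulation at 3.08 and 4.02 CPM against 5.06 and 6.36 CPM. The stimulated levels of Akr1a1 KO were thus below those of wildtype, while the unstimulated levels were far above. It was the only member called in the unstimulated comparison, where 0.583% of genes were called and 0.23% called higher, and in the genotype-by-stimulation difference (log2 −3.17), where 0.0204% were called and 0.0153% called negative. As the gene was chosen for this pattern, nothing is read from these calls. The unstimulated call was lost without Akr1a1 KO unstimulated replicate B, at an unchanged log2 fold change of 2.48. The genotype-by-stimulation call was lost without any 1 of 7 of the 8 libraries, with log2 values between −3.42 and −3.00, and also with the stricter count filter filterByExpr. The other members at rest had confidence intervals that included 0, except Psph (0.43, 95% confidence interval 0.09 to 0.76, adjusted p = 0.446) and Mthfd2 (0.38, 0.09 to 0.67, adjusted p = 0.42). In the BMDM-labelled experiment Aldh1l2 was instead lower in unstimulated iNOS KO than in unstimulated wildtype libraries, as given above.

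**Figure D4:**
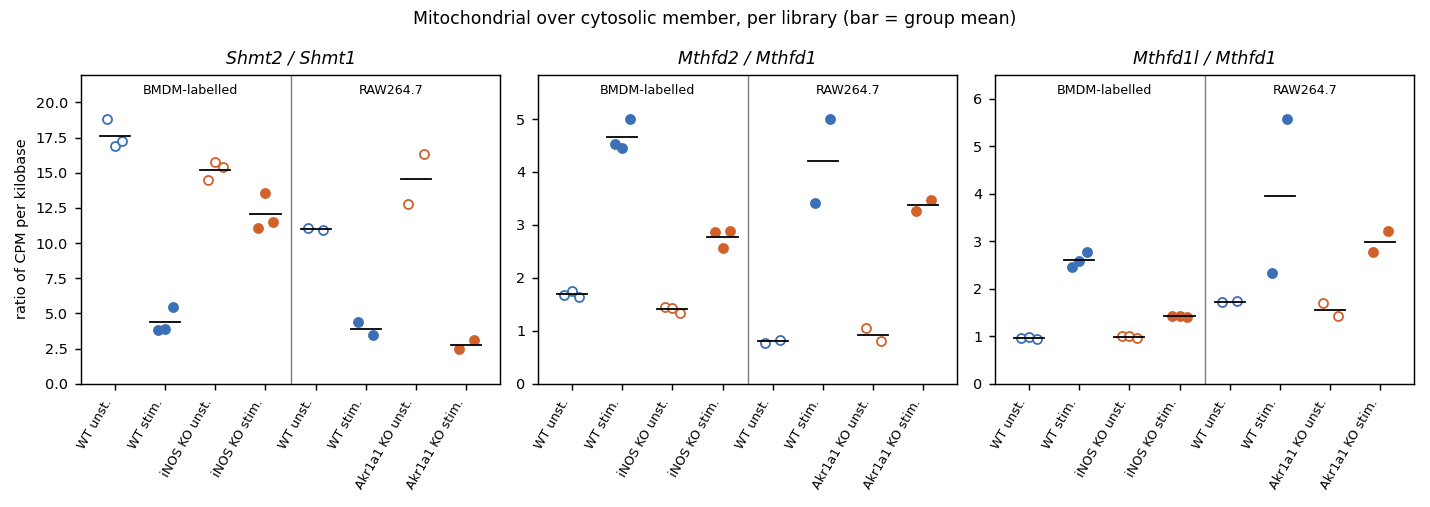
Ratio of CPM per kilobase of a mitochondrial member to its cytosolic counterpart in each library (vertical axis, linear from 0), for Shmt2 over Shmt1, Mthfd2 over Mthfd1 and Mthfd1l over Mthfd1: wildtype in blue, KO in orange, open points unstimulated, filled points stimulated, black bar the group mean. Stimulated libraries are lower than unstimulated ones of the same genotype in the first ratio and higher in the others, and in stimulated iNOS KO libraries all 3 lie between the unstimulated and the stimulated wildtype libraries.

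Each ratio moved in the same direction in both experiments, but the ratios did not all move alike. After stimulation that of Shmt2 to Shmt1 was lower, while those of Mthfd2 and Mthfd1l to Mthfd1 were higher. In stimulated iNOS KO libraries Shmt2 exceeded Shmt1 per kilobase by 11.1 to 13.5 times, between the wildtype values before and after stimulation, and Mthfd2 exceeded Mthfd1 by 2.57 to 2.88 times. In RAW264.7 wildtype cells the Shmt2 to Shmt1 ratio was 10.9 and 11.1 before and 3.44 and 4.41 after stimulation, and in Akr1a1 KO cells 12.8 and 16.4 before and 2.46 and 3.10 after. The Mthfd2 to Mthfd1 ratio was at most 1.05 in the 4 unstimulated and at least 3.26 in the 4 stimulated RAW264.7 libraries. These ratios are descriptions of levels within a library and carry no test.

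Some genes outside the set followed its members closely across libraries. Over the 12 BMDM-labelled libraries and 8571 genes ranked, the protein-coding genes with the highest Pearson correlation of log2 CPM with Shmt2 were Banf1, H2az1, Vars, Dtymk and Slc7a5 (r between 0.998 and 0.999), and Phgdh came next (r = 0.998). Mthfd1 had r = 0.991, Tyms 0.966 and Aldh1l2 0.800. For Aldh1l2 over the 8 RAW264.7 libraries and 8851 genes, the closest were Pdia3, Pdia4, Dnajb11, Rpn1 and Hyou1 (r between 0.984 and 0.997), most of them known for folding or modifying proteins in the endoplasmic reticulum, and Mthfd2 was the closest other member (r = 0.961). These correlations rest on a few groups of libraries that share their stimulation state and are descriptions only.

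The surrounding pathway genes were read by list, with Benjamini-Hochberg adjustment over all genes tested, and their calls in wildtype stimulation are counted beside the same background of 35.4% called in the BMDM-labelled and 37.7% in the RAW264.7 experiment. Genes next to TYMS in thymidylate and deoxynucleotide supply fell, 8 of 8 in both experiments with Tyms counted, with median log2 fold changes of −3.83 and −3.56. Rrm2, a subunit of ribonucleotide reductase, went from 244 ± 11.1 to 2.66 ± 0.143 CPM (SD, n = 3) in wildtype BMDM-labelled cells. In purine synthesis, which takes carbon from folate, 8 of 10 genes fell in BMDM-labelled and 9 of 10 in RAW264.7 cells, among them Pfas (−2.85 ± 0.09 SE and −2.39 ± 0.22) and Impdh2 (−2.78 ± 0.08 and −2.22 ± 0.15). After stimulation all 7 genes of the first list other than Tyms and 7 of 10 of the second were called higher in iNOS KO than in wildtype BMDM-labelled cells, where 10.7% of all genes were called higher and 19.6% in either direction, with Impdh2 higher by 2.60 ± 0.08 on the log2 scale.

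**Figure D5:**
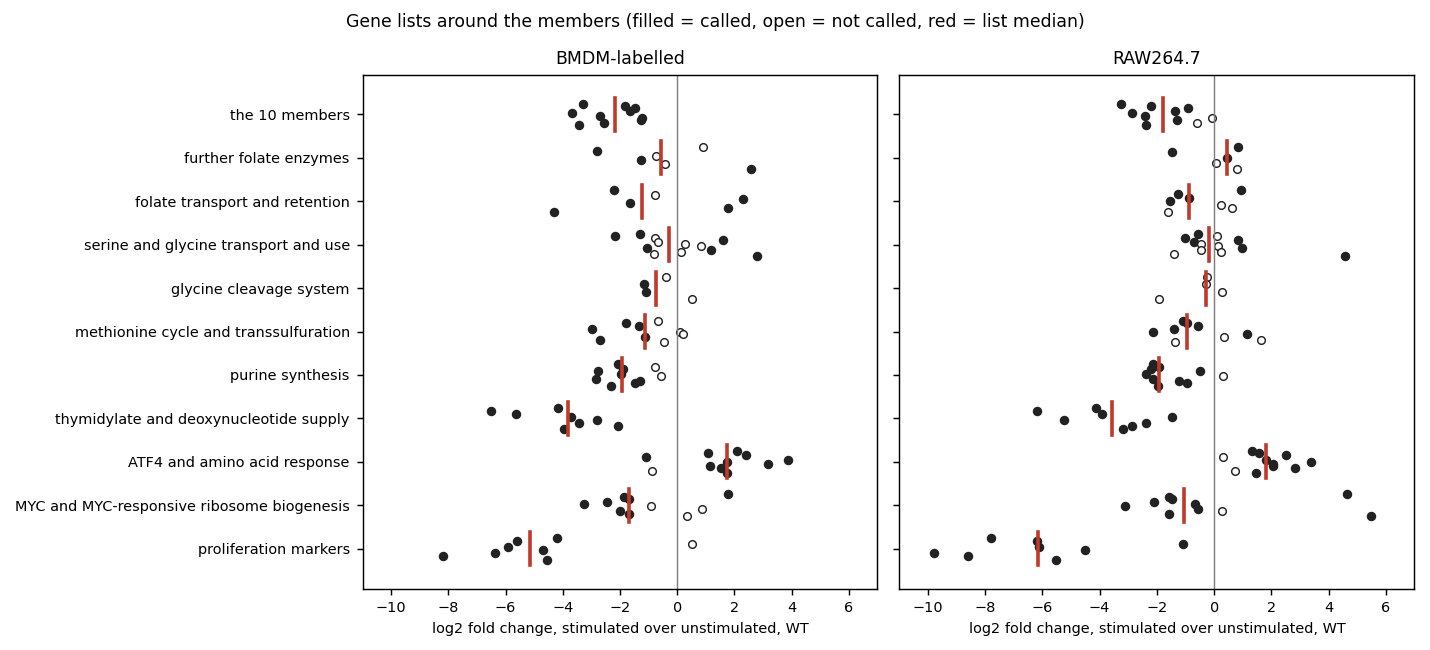
Log2 fold change on stimulation in wildtype cells (horizontal axis) of the members and of the genes in each of 10 lists, for the BMDM-labelled experiment on the left and the RAW264.7 experiment on the right: filled points were called, open points were not, and the red bar is the list's median. Proliferation, thymidylate and purine genes lie to the left with the members, and genes of the ATF4 and amino acid response lie mostly to the right.

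Proliferation markers moved with the members. In wildtype stimulation 7 of 8 were called lower in BMDM-labelled and 8 of 8 in RAW264.7 cells (median log2 fold change −5.15 and −6.15), and 7 of 8 were called higher in iNOS KO than in wildtype cells after stimulation, against 10.7% of all genes. Ccna2, a cyclin of S phase and mitosis, was at 171 ± 3.73 CPM in unstimulated and 0.571 ± 0.0961 CPM in stimulated wildtype libraries, and at 77.6 ± 5.22 CPM in stimulated iNOS KO libraries (SD, n = 3). Mki67 was at 538 ± 42.9, 29.5 ± 1.82 and 223 ± 68.7 CPM in these groups. The paper describes BMDMs as not proliferating in either genotype or state, and RAW264.7 cells as held back in proliferation by the NO made on stimulation. Which cells the BMDM-labelled libraries came from was not tested. The part of changed proliferation in the levels of the members was not tested either.

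The list of ATF4 and amino acid response genes went the other way from the members. On stimulation 9 of 11 tested genes rose and 1 fell in wildtype BMDM-labelled cells (median log2 fold change 1.73), and 9 of 11 rose in RAW264.7 cells (1.83). In iNOS KO cells 8 of 11 were likewise called higher on stimulation (median 1.23), against 14% of all genes. In stimulated iNOS KO against wildtype cells 1 was called higher and 3 lower (median −0.91), against 10.7% and 8.87% of all genes. Atf4 itself went from 272 ± 9.60 to 575 ± 9.80 CPM in wildtype, and was at 295 ± 21.9 CPM in stimulated iNOS KO BMDM-labelled libraries (SD, n = 3). Ddit3, a stress-induced partner of C/EBP factors, rose by 3.86 ± 0.11 SE on the log2 scale in wildtype (edgeR adjusted p = 6.92e-15). Asns, asparagine synthetase, was the gene that fell, with the members, from 159 ± 1.69 to 74.4 ± 5.33 CPM, and it was at 166 ± 12.7 CPM in stimulated iNOS KO libraries. Asns was singled out after its values were seen. In unstimulated Akr1a1 KO against wildtype RAW264.7 cells, 2 of 11 tested genes of this list were called higher, against 0.23% of all genes. They were Ddit3 (1.37 ± 0.18, edgeR adjusted p = 0.0176) and Asns (0.78 ± 0.11, edgeR adjusted p = 0.0245). Atf4 was not called (258.9 and 289.7 against 214.6 and 246.2 CPM).

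Myc, whose protein drives ribosome and nucleotide genes, went another way than most genes of its list. Wildtype BMDM-labelled libraries held 87.4 ± 9.18 CPM unstimulated and 161 ± 15.2 CPM stimulated (SD, n = 3, short of the 2-fold limit), while 6 of the 10 genes of its list fell, Cad, of pyrimidine synthesis, by 3.26 on the log2 scale, and 1, Odc1, rose. In RAW264.7 wildtype cells Myc rose from 1.57 and 4.65 CPM to 109 and 136 CPM (log2 fold change 5.47 ± 0.47 SE, edgeR adjusted p = 6.01e-05), as did Odc1, and 7 of the 10 fell. In stimulated iNOS KO libraries Myc was at 359 ± 7.71 CPM, and 6 of the 10 genes, Myc included, were called higher than in wildtype, against 10.7% of all genes.

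Folate handling was mixed rather than uniformly lower. Among further folate enzymes in wildtype BMDM-labelled cells 2 of 6 tested fell and 1 rose: Aldh1l1, the cytosolic counterpart of Aldh1l2, went from 4.85 ± 0.853 to 2.02 ± 0.116 CPM and Mthfs from 1.26 ± 0.196 to 7.58 ± 0.572 CPM (SD, n = 3). Of 6 transport and retention genes 3 fell and 2 rose: the folate carrier Slc19a1 went from 75.5 ± 0.776 to 16.1 ± 0.845 CPM, and Ggh, which removes the glutamate tail that holds folate in cells, from 9.83 ± 0.504 to 47.9 ± 0.761 CPM. In RAW264.7 cells 2 of 5 further folate enzymes rose and 1 fell, and 1 of 7 transport genes rose and 3 fell. In stimulated iNOS KO against wildtype BMDM-labelled cells, 2 genes of each list were called higher, against 10.7% of all genes, and 1 lower, the lower ones being Mthfs and the transporter Slc46a1.

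Serine, glycine and methionine genes gave smaller counts. In wildtype BMDM-labelled cells 3 of 12 genes of serine and glycine transport and use rose and 3 fell, with Slc1a5, a neutral amino acid exchanger, lower by a log2 fold change of −2.18 ± 0.07 SE, and 3 rose and 3 fell in RAW264.7 cells too. In the glycine cleavage system 2 of 4 fell in BMDM-labelled cells, and in RAW264.7 cells the median log2 fold change of the 4 was −0.27. In the methionine cycle and transsulfuration list 5 of 9 tested fell in both experiments, and 1 rose in RAW264.7 cells. Ahcy, which clears S-adenosylhomocysteine, changed by −2.97 ± 0.12 and −2.15 ± 0.14. Cth, the cysteine-forming enzyme, was at 6.79 ± 0.610 CPM in unstimulated and 3.12 ± 0.638 CPM in stimulated wildtype libraries, but rose from 4.30 ± 0.154 to 32.6 ± 0.619 CPM in iNOS KO libraries. In stimulated iNOS KO against wildtype cells 2 of 12 serine and glycine genes and 3 of 9 methionine genes were called higher, against 10.7% of all genes, and the median of the 4 glycine cleavage genes was −0.18.

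Across all 10 lists, stimulated Akr1a1 KO and wildtype RAW264.7 cells differed in a single called gene, where 0.286% of all genes were called. The number of genes called in this comparison depended on the setting, as given in the closing section. Gcsh, the carrier protein of the glycine cleavage system, was at 29.1 and 31.8 CPM in Akr1a1 KO and at 62.6 and 63.0 CPM in wildtype libraries (log2 fold change −1.05 ± 0.12 SE, edgeR adjusted p = 0.0132). Its levels before stimulation were 75.6 and 84.2 CPM in Akr1a1 KO and 76.5 and 76.9 CPM in wildtype libraries, which overlap.

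Without stimulated iNOS KO replicate B, the counts of list genes called in stimulated iNOS KO against wildtype cells were equal for 7 of the 10 lists. In the other 3, 1 instead of 2 folate transport genes was called higher, 5 instead of 3 ATF4 and amino acid response genes were called lower, and 7 instead of 6 genes of the MYC list were called higher. Levels of list genes and correlations were not recomputed without that library.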

How the data were processed

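RNA of 20 samples was sequenced as bulk libraries, 12 labelled BMDM and 8 of RAW264.7. Per the study's methods and processing notes, reads were filtered, aligned to mm10 with STAR and counted per gene, and the counter is not given in the sources used here. The deposited values are raw read counts per gene, in 1 table per experiment, beside a gene length in bases that gave the levels per kilobase. No column of the authors' own comparisons was used.

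Genes reaching a summed count of 10 over an experiment's libraries were fitted with edgeR 4.0.16 (R 4.3.3, TMM scaling, quasi-likelihood test, Benjamini-Hochberg adjustment over all genes tested), each experiment alone, with 1 mean per group. Calls used the study's thresholds: adjusted p below 0.05, and in pairwise comparisons of the iNOS experiment also a log2 fold change beyond 1 in either direction. SE is the log2 fold change over the root of its F value. CPM used TMM library sizes, and correlations, over protein-coding genes, used log2 CPM with a prior count of 2. The script was tested on simulated data. Depth was 11876719 to 44583327 counts per library, and as replicates differed by more than counting noise, precision does not follow depth alone.

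The members and lists were chosen with earlier results of these data known. Genes named from the lists were at most 3 per list and experiment with the largest change among called genes, with Atf4 and Myc, and some genes the rule names are not reported here. Where a group was near 0 counts no fold is given. DESeq2 1.42.0 and the other alternatives are in the closing section. The study's methods call the replicates biological in the iNOS experiment, whose cells they describe as RAW264.7, and clonal in the Akr1a1 experiment. Pooling of marrow by genotype is stated there for primary BMDMs. The labels only letter the replicates, so p-values measure the spread between these samples. Within the BMDM-labelled experiment, same-lettered libraries deviated together in all 3 pairs only for stimulated against unstimulated iNOS KO cells (r = 0.404, 0.497 and 0.121 over 8857 genes). Between stimulated and unstimulated RAW264.7 cells r was 0.438 in wildtype and 0.1025 in Akr1a1 KO (9177 genes), the same for both letters. The tests above did not pair samples by letter, and fits with a replicate block are in the closing section.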

Additional observations from a re-analysis of the deposited data

Results flagged for a closer look

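The genotype-by-stimulation term of the edgeR fit flagged every member in the BMDM-labelled experiment and Aldh1l2 in RAW264.7 cells. The members were chosen on these contrasts, so nothing is read from the flags and the sizes are given without a test. In BMDM-labelled cells the log2 change on stimulation in iNOS KO minus that in wildtype was 3.46 for Tyms, 3.12 for Shmt2 and 2.78 for Phgdh, 2.03 for Psat1, 1.88 for Mthfd1, 1.42 for both Psph and Shmt1, and 1.39 for Mthfd2. It was smallest for Aldh1l2 at 0.99 and Mthfd1l at 0.96. In RAW264.7 cells the change of Aldh1l2 in Akr1a1 KO minus that in wildtype was −3.17. It lay between −3.42 and −3.00 when single libraries were left out, and its flag was lost with filterByExpr. Groups held 2 or 3 libraries, too few to test a single library for standing apart.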

How the results depend on the processing

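Counts of called members here include Shmt2 and Aldh1l2, whose calls are descriptions where the choice of genes used them. The number of members called stayed within 1.5 times under DESeq2, RLE size factors, filterByExpr, no count filter, no fold limit (iNOS) or an added one (RAW264.7), only the 2 groups compared and the replicate block, apart from the following. Without a fold limit 5 members instead of 0 were called in unstimulated and 7 instead of 1 in stimulated against unstimulated iNOS KO comparisons. In RAW264.7 cells, Akr1a1 KO against wildtype gave 1 instead of 0 after stimulation with DESeq2 and with no count filter, and 2 instead of 1 at rest with no count filter. The genotype-by-stimulation term gave 2 instead of 1 with DESeq2 and 0 with filterByExpr. Causes were not tested. Of 1340 member log2 changes under alternatives 1303 kept their side of the threshold, 17 lost the call and 20 gained it. A change of sign was counted only where the main fit or the alternative called the gene, and 0 were found. Some changes called in neither did switch sign. For Tyms in stimulated Akr1a1 KO against wildtype RAW264.7 cells the alternatives ran from −0.43 to 0.67. Leaving out each library in turn gave, in the BMDM-labelled experiment, 8 called members for stimulated and 0 for unstimulated iNOS KO against wildtype, 10 and 1 for stimulation in wildtype and iNOS KO, and 10 for the genotype-by-stimulation term. In RAW264.7 cells it gave 0 for stimulated and 0 to 1 for unstimulated Akr1a1 KO against wildtype, 8 for stimulation in wildtype, 9 to 10 in Akr1a1 KO, and 0 to 1 for the genotype-by-stimulation term, where a lone library is assumed to vary like the others.

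With the replicate block the counts of called members in the BMDM-labelled comparisons were 8, 0, 10, 1 and 10, and in the RAW264.7 comparisons 0, 1, 8, 10 and 1, all equal to those without it. With letters nested in genotype, 9 members were called in wildtype RAW264.7 stimulation. Same-lettered RAW264.7 libraries of opposite genotype deviated apart (r = −0.165 at rest and −0.10 after stimulation), and with crossed letters in the block, an alternative added after the data were seen, the RAW264.7 counts were again 0, 1, 8, 10 and 1, and 141 and 204 of all genes were called between genotypes after stimulation and at rest. Counts over all genes moved more. Akr1a1 KO against wildtype called 56 genes after stimulation (12 with only those 2 groups, 480 with DESeq2, 1015 with no count filter) and 114 at rest (406 with DESeq2, 846 with no count filter), and the RAW264.7 genotype-by-stimulation term called 4 (1 with filterByExpr, 2 with RLE or the replicate block, 57 nested, 90 with DESeq2, 285 with no count filter). Without a fold limit the BMDM-labelled counts went from 3655 to 9040, 310 to 1117, 6611 to 11384 and 4258 to 9706.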
